A study of Mus musculus with 8 samples.

Results

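The Sonic hedgehog (Shh) pathway was examined in developing molars that lacked the Notch ligand Jagged1 in their epithelium. Its 9 core genes were taken by name: the ligand Shh, its receptors and co-receptors Ptch1, Smo, Boc and the ligand-binding inhibitor Hhip, the cytoplasmic inhibitor Sufu, and the transcription factors Gli1, Gli2 and Gli3. They are 9 of the 43629 genes in the count tables, and all 9 were among the 17129 genes with enough reads to be tested. RNA was sequenced from the lower molars of 8 mouse embryos at E18.5, shortly before birth. The 4 embryos called WT (J3, J5, J6 and J7) carried Jagged1 fl/fl without Cre, and the 4 mutant embryos (K14J26, K14J28, K14J29 and K14J30) were K14Cre;Jagged1fl/fl. All 8 embryos therefore shared the floxed allele. The keratin 14 promoter drives Cre in epithelial cells, so the dental mesenchyme kept an intact Jagged1 gene. Each library pooled the molars of both sides of 1 embryo, and the WT embryos were littermates of mutants, though which embryos shared a litter is not given, so that p-values measure the spread between these embryos.

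Shh is secreted by the dental epithelium and reaches both neighbouring epithelial cells and the mesenchyme. It binds Ptch1, which then releases Smo at the primary cilium, and Smo turns the Gli factors from repressors into activators. Gli1, Ptch1 and Hhip are themselves transcribed in response to the signal, so that their transcripts are widely used as readouts of it, and in molars the pathway is known for its part in epithelial growth, crown shape and the differentiation of the enamel-forming ameloblasts.

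The RefSeq promoter windows of GRCm38.p6, which run from 250 bases before to 50 bases after a gene's start site, matched 6 of the 9 members: Ptch1, Smo, Gli2, Gli3, Hhip and Sufu. Shh, Gli1 and Boc had no entry. The Gli binding motif GACCACCCA was searched on both strands and was found in 0 of these 6 windows and in 0.253% of all 32851 windows of this length. Its inner 7 letters ACCACCC, which lie within the longer motif, were found in 1 of the 6, that of Gli2, and in 4.61% of all windows. The windows of both response genes with an entry and of Gli2 are shown, the first pair as readouts of the signal and Gli2 for its match. They lie on the minus strand at chr13:63565686-63565985 (Ptch1), chr8:80057959-80058258 (Hhip) and chr1:119053570-119053869 (Gli2), and each is written 5′ to 3′ along the gene. The Ptch1 window surrounds a RefSeq start site that lies inside the GENCODE gene, downstream of its outermost 5′ end. Capitals mark the 7-letter match in Gli2, which reads GGGTGGT on the printed strand and starts 205 bases before the start site.
Ptch1: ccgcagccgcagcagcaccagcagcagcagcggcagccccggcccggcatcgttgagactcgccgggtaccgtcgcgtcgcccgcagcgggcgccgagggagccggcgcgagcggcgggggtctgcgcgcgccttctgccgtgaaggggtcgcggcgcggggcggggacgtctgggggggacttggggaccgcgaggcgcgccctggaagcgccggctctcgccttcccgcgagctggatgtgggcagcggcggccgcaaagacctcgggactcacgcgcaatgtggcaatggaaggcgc
Hhip: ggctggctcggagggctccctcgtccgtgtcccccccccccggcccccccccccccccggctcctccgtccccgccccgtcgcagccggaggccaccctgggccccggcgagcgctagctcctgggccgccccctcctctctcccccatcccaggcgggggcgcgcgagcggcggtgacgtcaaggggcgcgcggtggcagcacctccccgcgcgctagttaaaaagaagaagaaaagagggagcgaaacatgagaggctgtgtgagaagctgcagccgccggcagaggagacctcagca
Gli2: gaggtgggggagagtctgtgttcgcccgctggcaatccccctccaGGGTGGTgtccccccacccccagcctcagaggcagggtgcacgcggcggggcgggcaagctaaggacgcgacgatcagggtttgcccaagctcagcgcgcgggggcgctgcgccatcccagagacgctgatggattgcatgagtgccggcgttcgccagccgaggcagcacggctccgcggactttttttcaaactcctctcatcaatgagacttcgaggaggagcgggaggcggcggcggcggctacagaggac

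Libraries held 17327224 to 29792467 counts, and levels are given as CPM, counts scaled to a common library size after TMM correction for library composition. Jag1, the deleted gene, was at 95.3, 103, 104 and 99.9 CPM in J3, J5, J6 and J7 and at 34.0, 39.0, 46.0 and 57.1 CPM in the mutants, a log2 fold change of -1.19 (SE 0.14) with an adjusted p of 0.00517 by the quasi-likelihood test of edgeR after Benjamini-Hochberg adjustment. Markers of dental epithelium, mesenchyme, ameloblasts and odontoblasts were present in all 8 libraries. Several libraries stood apart. K14J26 had 9.57% of its counts on the enamel genes Amelx, Ambn and Enam, against 0.356% to 2.47% in the other mutants and 0.0559% to 0.329% in WT. J6 and J7 carried skeletal muscle transcripts (6 marker genes summing to 373 and 183 CPM, against at most 17.4 CPM elsewhere). K14J28 carried the oral mucosa markers Krt13 and Krt4 at 649 CPM, against at most 124 CPM elsewhere. Xist, the RNA of X inactivation, was at 1930 and 1468 CPM in K14J28 and K14J29 and at no more than 1.09 CPM in the other 6 libraries. High Xist was thus found only in mutants, and the sex of the embryos is not given.

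Across the members, 1 of 9 (11.1%) differed between the groups at an adjusted p under 0.05, where 16.1% of all genes tested did. That gene was Boc, which was higher in the mutants. The criteria of the study, a p of at most 0.05 and a fold change of at least 0.5, read here as an unadjusted p and an absolute log2 fold change because the scale is not stated, were met by 0 of 9 members in the edgeR fit, while 14.2% of all genes met them and 4 members had an unadjusted p under 0.05. Groups did not overlap for Boc, higher in every mutant, and for Smo, lower in every mutant, which is 2 of 9 members against 24.2% of all genes. With library size alone as the scaling these were Smo and Gli3 instead. The median log2 fold change of the members was 0.03 and their median absolute log2 fold change 0.15, against 0.01 and 0.22 over all genes tested. The single members are described in the order of their place in the pathway.

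**Figure D1:**
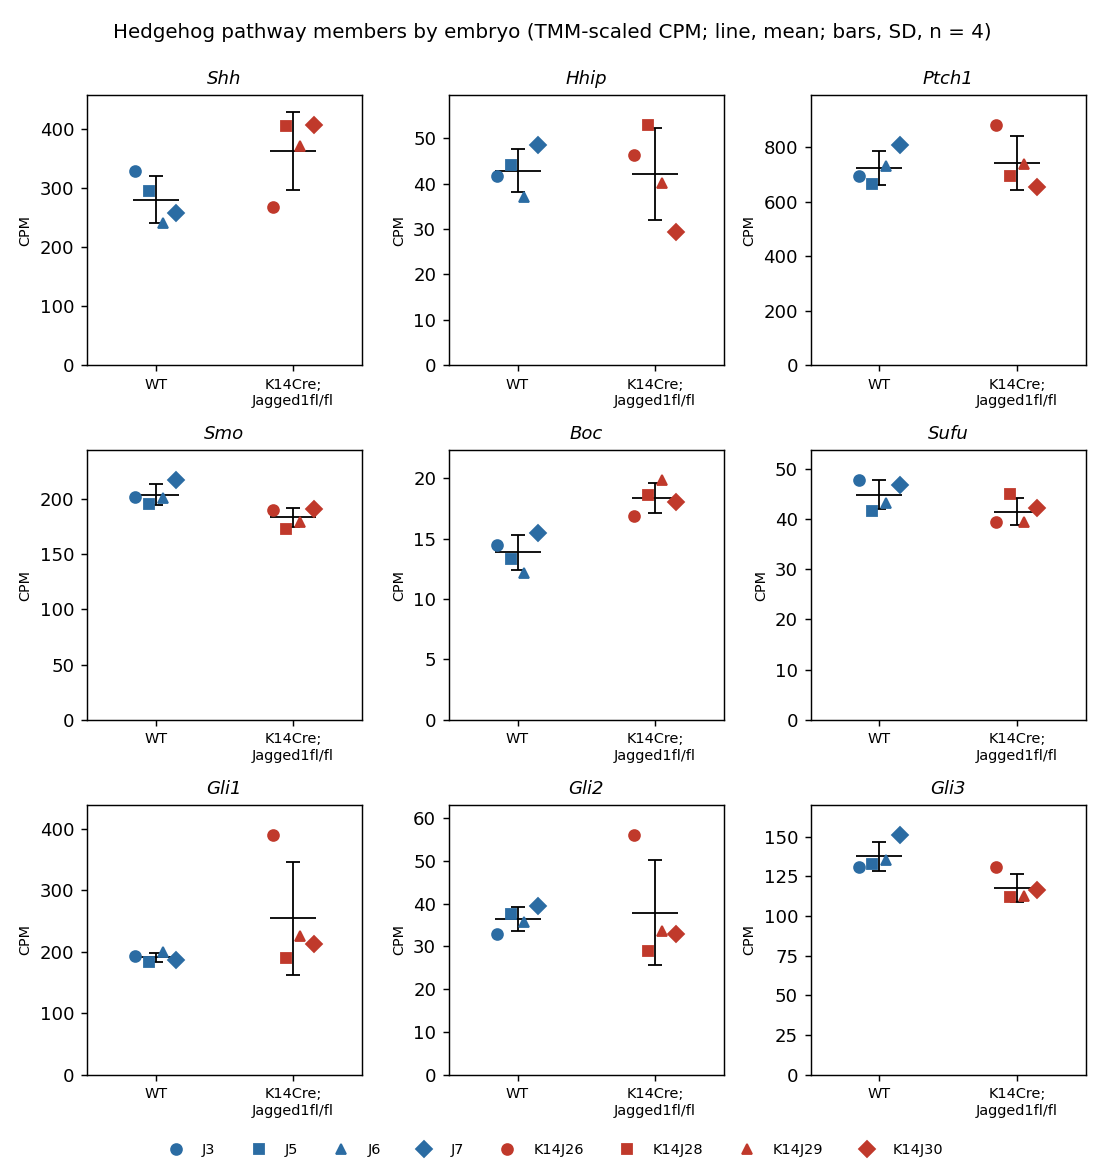
Level of each of the 9 members in every embryo, in TMM-scaled CPM (y axis from 0), for WT (blue) and K14Cre;Jagged1fl/fl (red); lines are means and bars the SD of 4 embryos. Boc was higher and Smo lower in all 4 mutants than in all 4 WT embryos, and K14J26 had the highest Ptch1, Gli1 and Gli2 and the lowest Shh of the mutants.

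Members were compared with each other per kilobase of exon (CPM per kb). Shh was the most abundant in WT molars at 98.3 ± 13.9 CPM per kb (SD, n = 4), which placed it at the 97.8th percentile of the genes tested. Ptch1 followed at 51.1 ± 4.43 CPM per kb, then Gli1 at 38.2 ± 1.45 and Smo at 36.3 ± 1.62 CPM per kb, whose ranges overlapped. Gli3 was at 14.4 ± 0.953 CPM per kb. Sufu (5.82 ± 0.375), Gli2 (5.29 ± 0.412) and Hhip (4.72 ± 0.523 CPM per kb) formed a lower tier in which each gene overlapped its neighbour in the order. Boc was the scarcest member at 3.12 ± 0.320 CPM per kb, the 40.4th percentile. In the mutants the ranges of Ptch1 (46.1 to 62.1 CPM per kb) and Gli1 (37.9 to 78.0 CPM per kb) overlapped, as did those of Hhip and Boc.

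The ligand Shh (ENSMUSG00000002633, chr5:28456815-28467256, minus strand) was at 328, 294, 240 and 257 CPM in J3, J5, J6 and J7, and at 267, 405, 370 and 406 CPM in K14J26, K14J28, K14J29 and K14J30. All mutants but K14J26 lay above the highest WT embryo, while K14J26 lay inside the WT range. The means were 280 ± 39.5 CPM in WT and 362 ± 65.3 CPM in the mutants (SD, n = 4), which gave a log2 fold change of 0.37 with a 95% interval of 0.05 to 0.70, or 1.29-fold. The difference did not pass the adjusted threshold (edgeR's quasi-likelihood test, adjusted p = 0.104). Without K14J26 the log2 fold change was 0.49 with an adjusted p of 0.0143, and Shh was then called higher, the largest of the estimates without 1 embryo, which began at 0.30. Without J6 and J7, the WT embryos with the lowest Shh and with muscle transcripts, it was 0.21 with an adjusted p of 0.505.

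Epithelial markers differed in their direction. The sum of Krt14, Krt5, Epcam, Cdh1 and Trp63 was 4402 to 5115 CPM in WT and 5204 to 7841 CPM in the mutants, with its highest value in K14J26, the mutant with the lowest Shh. Most of the sum was Krt5 and Krt14. Krt14 was called higher in the mutants (log2 fold change 0.955, edgeR's quasi-likelihood test, adjusted p = 0.0217). Cdh1 (0.47), Krt5 (0.312) and Trp63 (0.212) also had higher estimates but were not called (adjusted p = 0.0546, 0.065 and 0.0546). Only Epcam went the other way, lower in every mutant (113 to 195 CPM) than in every WT embryo (218 to 255 CPM). Its log2 fold change was -0.51 (adjusted p = 0.0527), and it was lowest in K14J26. The sum of the enamel knot signals Fgf4, Fgf3, Fgf9, Wnt10b and Bmp4 was 108 to 125 CPM in WT and 68.1 to 85.8 CPM in the mutants. Its largest member, Bmp4, did not follow the sum (57.0 CPM in WT and 58.2 CPM in the mutants), while Fgf3 and Fgf9 were lower in every mutant, Wnt10b overlapped and Fgf4 was at 0 in J6, K14J26, K14J29 and K14J30. With the epithelial marker score (the mean log2 level of the list) as a covariate the log2 fold change of Shh was 0.66 (adjusted p = 0.179), and with the ameloblast score it was 0.78 and passed (adjusted p = 0.033). It was smaller with the skeletal muscle score (0.30, adjusted p = 0.297) and with the Xist level (0.23, adjusted p = 0.38). Both the epithelial and the ameloblast score were higher in every mutant than in every WT embryo. The epithelial score was 9.19 to 9.38 in WT and 9.39 to 9.72 in the mutants. The ameloblast score was 4.73 to 6.87 and 6.94 to 11.8. Fits with either score, here and below, therefore cannot clearly separate the score from the genotype. In a bulk sample fewer cells of a type and less RNA per cell cannot be told apart.

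Ptch1 (ENSMUSG00000021466, chr13:63508328-63573598, minus strand), the receptor that holds Smo inactive until a ligand binds and a transcriptional target of the pathway, was at 695, 665, 732 and 810 CPM in WT and at 881, 695, 739 and 654 CPM in the mutants, in the order of embryos used above. Both the highest and the lowest of the 8 values came from mutants, K14J26 and K14J30. The log2 fold change was 0.03 with an interval of -0.20 to 0.26 (adjusted p = 0.849). As a fold the interval ran from 0.872 to 1.20, and the log2 estimate was -0.06 without K14J26.

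Smo (ENSMUSG00000001761, chr6:29735503-29761365, plus strand), the seven-pass membrane protein that passes the signal on inside the cell, was at 202, 196, 201 and 217 CPM in WT and at 190, 173, 180 and 191 CPM in the mutants. Each mutant lay below each WT embryo, though the gap between the lowest WT value, in J5, and the highest mutant value, in K14J30, was small. The log2 fold change was -0.15 (interval -0.29 to -0.02), and it did not pass adjustment (adjusted p = 0.102).

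Boc (ENSMUSG00000022687, chr16:44485049-44558897, minus strand), a cell-surface co-receptor that binds Shh together with Ptch1, was at 14.5, 13.3, 12.2 and 15.5 CPM in WT and at 16.9, 18.7, 19.9 and 18.0 CPM in the mutants. All 4 mutants were above all 4 WT embryos, and the reads behind these values numbered 235 to 573 per library. Boc rose by 0.40 on the log2 scale (SE 0.10, interval 0.19 to 0.62, or 1.32-fold; adjusted p = 0.0277), where 9.52% of all genes tested were called higher. The call was kept without K14J26, K14J28 or K14J30 and lost without J3, J5, J6, J7 or K14J29, with log2 fold changes of 0.34 to 0.46 and adjusted p-values of 0.0177 to 0.0834 over these 8 fits. Boc was called in 8 of the 15 other alternative fits, each with a higher estimate in the mutants (0.31 to 0.56, adjusted p = 0.00389 to 0.157).

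The inhibitor Hhip (ENSMUSG00000064325, chr8:79965851-80058006, minus strand), a membrane protein that binds and sequesters the ligand and is induced by the signal, was at 41.8, 44.1, 37.1 and 48.5 CPM in WT and at 46.3, 52.9, 40.0 and 29.2 CPM in the mutants. Mutants again held both the highest (K14J28) and the lowest (K14J30) value. The log2 fold change was -0.03 with an interval of -0.40 to 0.35 (adjusted p = 0.926). Sufu (ENSMUSG00000025231, chr19:46396896-46488804, plus strand), which keeps the Gli factors in the cytoplasm, was at 47.7, 41.6, 43.1 and 46.7 CPM in WT and at 39.4, 44.9, 39.3 and 42.1 CPM in the mutants. The groups overlapped, and the log2 fold change was -0.11 (interval -0.28 to 0.05, adjusted p = 0.301).

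Gli1 (ENSMUSG00000025407, chr10:127329882-127341974, minus strand), the activator that is itself switched on by the pathway, was at 193, 183, 200 and 186 CPM in WT, a spread of 3.81% of the mean. In the mutants it was at 390, 189, 225 and 213 CPM, a spread of 36.0%. K14J26 had 1.86 times the mean of the other mutants, and K14J28 lay within the WT range. The log2 fold change was 0.41 with an interval of -0.04 to 0.87 (adjusted p = 0.172), and 0.13 without K14J26 (adjusted p = 0.194). With the epithelial or ameloblast marker score as a covariate, the estimate turned to -0.23 and -0.25 (adjusted p = 0.658 and 0.429). With the Xist level as a covariate it was 0.71 and Gli1 was called higher (adjusted p = 0.0427).

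Gli2 (ENSMUSG00000048402, chr1:118834132-119053619, minus strand), the main activator that acts before Gli1 is made, was at 32.8, 37.5, 35.7 and 39.5 CPM in WT and at 56.1, 28.9, 33.6 and 33.0 CPM in the mutants. K14J26 stood above every other embryo and K14J28 was the lowest. The log2 fold change was 0.06 (interval -0.37 to 0.48, adjusted p = 0.862) and turned to -0.19 without K14J26 (adjusted p = 0.138). With the epithelial or ameloblast marker score as a covariate it was at -0.44 and -0.53 (adjusted p = 0.417 and 0.143). The Xist level as a covariate gave 0.33 (adjusted p = 0.234).

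Gli3 (ENSMUSG00000021318, chr13:15463235-15730026, plus strand), which acts mostly as a repressor when no ligand is present, was at 131, 133, 136 and 151 CPM in WT. The mutants were at 131, 112, 113 and 116 CPM, so that K14J26 met the lowest WT embryo and the other mutants lay below all of WT. The log2 fold change was -0.22 (SE 0.07, interval -0.39 to -0.06; adjusted p = 0.0643). Without K14J26 it was -0.28 with an adjusted p of 0.0196, and Gli3 was then called lower. It was also called in 5 of the 15 other alternatives (-0.33 to -0.15, adjusted p = 0.0239 to 0.321).

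**Figure D2:**
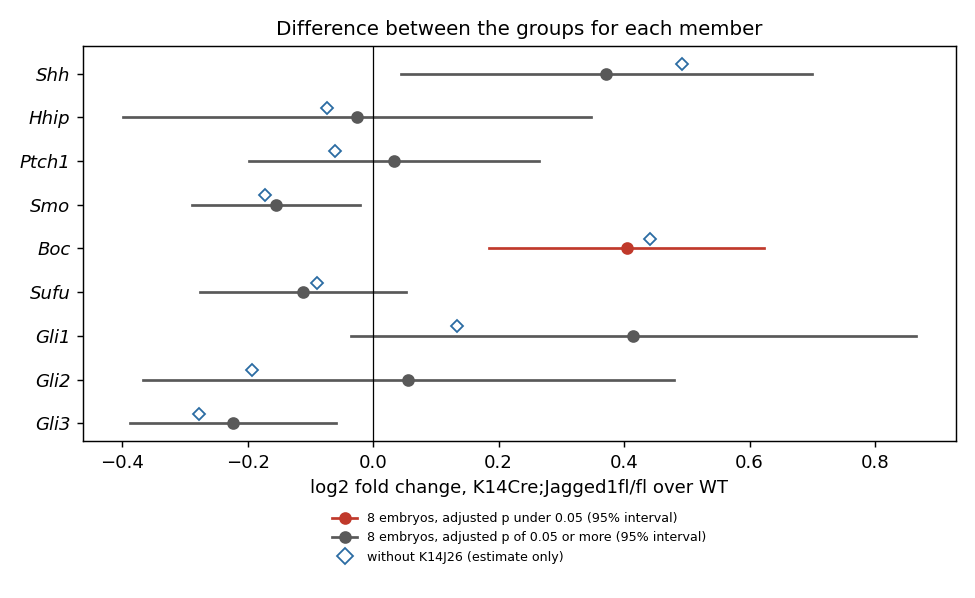
Log2 fold change of each member, K14Cre;Jagged1fl/fl over WT (x axis), with the 95% interval of edgeR's quasi-likelihood fit; open diamonds give the estimate without K14J26. The interval of Gli1 runs from -0.04 to 0.87, and leaving out K14J26 moved its estimate from 0.41 to 0.13 while that of Boc went from 0.40 to 0.44.

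K14J26 had a member profile of its own. Compared with the mean of the other mutants, it had 1.86 times the Gli1, 1.76 times the Gli2 and 1.27 times the Ptch1, but 0.679 times the Shh. Gli3, Smo, Hhip, Sufu and Boc of K14J26 were within 0.895 to 1.15 times the mean of the other mutants. Ameloblast markers summed to 114400 CPM in this library and to 3503 to 25820 CPM in the other mutants. Col1a1, a collagen of mesenchyme and bone, was at 16680 CPM against 5464 to 11550 CPM, and the odontoblast gene Dspp at 6553 against 1801 to 4697 CPM. The other odontoblast marker, Dmp1, was at 254 CPM, inside the range of the other mutants (190 to 392.3 CPM), and the mesenchymal marker Prrx1 was at 64.9 CPM, the lowest of the mutants (68.9 to 102 CPM in the others). Between the groups, the summed ameloblast markers were at 557 to 3254 CPM in WT and 3503 to 114400 CPM in the mutants, with no overlap. Amelx, Ambn, Enam and Mmp20 were called higher (edgeR's quasi-likelihood test, adjusted p = 0.0244 to 0.0299), and Klk4 was not (adjusted p = 0.0533). The summed odontoblast markers were at 493 to 1643 CPM in WT and 1991 to 6807 CPM in the mutants, with no overlap. Dspp was apart too, while Dmp1 overlapped (126 to 265.5 CPM in WT, 190 to 392.3 CPM in the mutants). The bone markers Ibsp, Bglap and Sp7 summed to 298 to 362 CPM in WT and 411 to 640 CPM in the mutants. Of these only Bglap was apart (12.7 to 25.3 and 31.3 to 201 CPM). Sp7 overlapped but was called higher (log2 fold change 0.376, edgeR's quasi-likelihood test, adjusted p = 0.039), as was Bglap (2.558, adjusted p = 0.0165). Ibsp was at 164 to 189 CPM in WT and at 149, 448, 169 and 141 CPM in the mutants. The part of these cell types in the profile and in the differences between the groups was not tested.

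Ratios within an embryo, which do not depend on how libraries are scaled, set the ligand against its response genes and the activator against the repressor. The Gli1 to Gli3 ratio was 1.48, 1.38, 1.47 and 1.23 in WT and 2.98, 1.69, 1.999 and 1.83 in the mutants. It was higher in all 4 mutants than in all 4 WT embryos, by 0.58 on the log2 scale. The exact two-sided permutation test gave p = 0.0286, the smallest its 70 arrangements allow, and 0.114 after Benjamini-Hochberg adjustment over the 4 ratios computed. A single ratio could reach no lower adjusted p in this design, so that the adjusted test could not have been passed by this ratio alone. Without K14J26 the difference was 0.41.

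The Shh to Ptch1 ratio was 0.473, 0.442, 0.328 and 0.317 in WT and 0.303, 0.583, 0.501 and 0.620 in the mutants, lowest in K14J26 and otherwise above every WT embryo. The mean log2 difference was 0.34 (exact permutation test, p = 0.257, adjusted p = 0.343). The Shh to Gli1 ratio differed by 0.01 on the log2 scale (exact permutation test, p = 1.0), with 0.686 in K14J26, 1.65 to 2.14 in the other mutants and 1.20 to 1.70 in WT. The Shh to Hhip ratio ranged from 5.30 to 7.87 in WT and from 5.77 to 13.9 in the mutants, a log2 difference of 0.41 (exact permutation test, p = 0.2, adjusted p = 0.343).

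**Figure D3:**
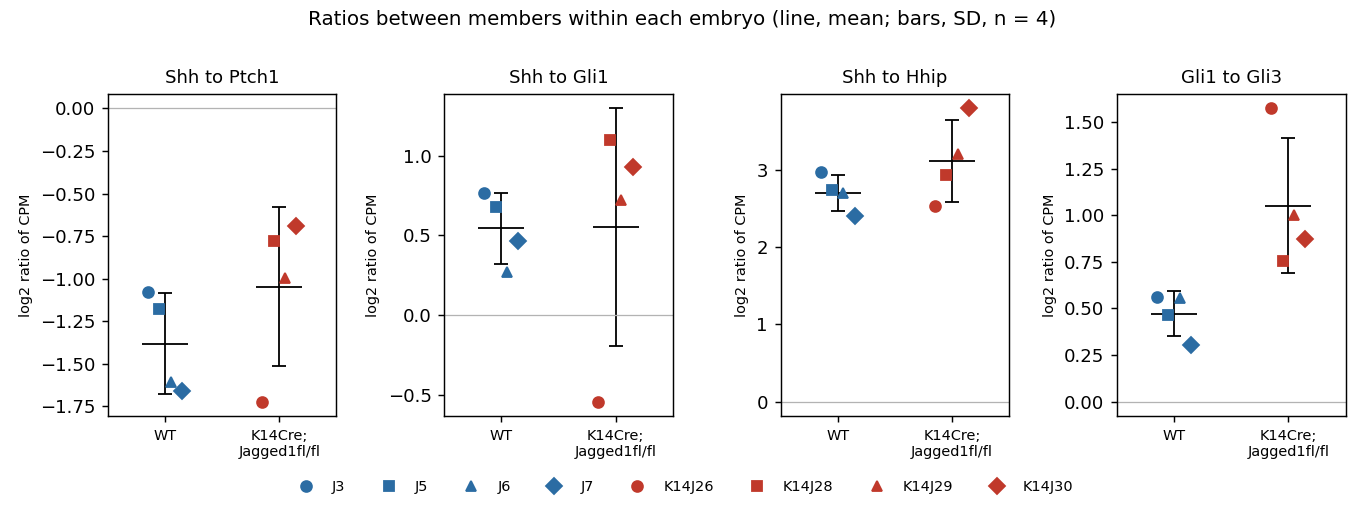
Log2 ratio of the CPM of 2 members within each embryo (y axis), for WT (blue) and K14Cre;Jagged1fl/fl (red); lines are means and bars the SD of 4 embryos. The groups were apart only for Gli1 to Gli3, and K14J26 was the lowest mutant in the 3 ratios with Shh and the highest in Gli1 to Gli3.

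Gli1 made up the largest share of Gli transcripts per kilobase in every embryo. Its share of the Gli1, Gli2 and Gli3 sum was 67.7%, 65.5%, 67.4% and 63.4% in WT and 78.1%, 70.5%, 73.0% and 71.6% in the mutants. Gli3 took 23.9% to 26.8% of the sum in WT and 13.7% to 21.7% in the mutants, and Gli2 8.4% to 9.8% and 7.8% to 8.2%. The shares sum to the whole and so depend on each other, and the CPM of each of the 3 genes overlapped between the groups. The sum itself was 56.0 to 59.3 CPM per kb in WT and 53.8 to 61.6 CPM per kb in the mutants other than K14J26, which reached 99.8 CPM per kb.

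The wider pathway was described with a list of 48 other genes, of which 46 were tested. Of these, 13 (28.3%) were called at an adjusted p under 0.05, against 16.1% of all genes. In the mutants 7 were higher and 6 lower, where 9.52% and 6.61% of all genes tested were higher and lower. The median log2 fold change of the list was -0.01. The count was 5 to 18 when single embryos were left out, falling to 6 without J3, 7 without J5 or J7 and 5 without K14J29, and it was 0 without J6 and J7 together and 0 with the epithelial marker score as a covariate, where 17 and 13 had an unadjusted p under 0.05 in the edgeR fit. By role the groups are small, and their counts stand beside the same shares of all genes.

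Among ligands and the proteins that release them, 1 of 6 tested genes was called (16.7%, against 16.1% of all genes). Scube1, a secreted relative of Scube2, which helps free lipid-modified Shh from the producing cell, was at 89.2, 92.3, 99.4 and 131 CPM in WT and at 16.6, 41.3, 24.8 and 51.2 CPM in the mutants, with no overlap. It fell by 1.62 on the log2 scale (SE 0.31, adjusted p = 0.0156), and lost its call without J7 or K14J29. With the epithelial marker score as a covariate Scube1 was at -0.74 (adjusted p = 0.35). Scube2 was at 0.495 to 1.39 CPM in WT and 1.30 to 1.97 CPM in the mutants (log2 fold change 0.93, adjusted p = 0.086), and Scube3 was at 417 to 580 CPM in the 8 embryos (-0.20, adjusted p = 0.174). The other Hedgehog ligands were near the detection limit, with 1 to 8 counts of Ihh and 5 to 30 counts of Dhh per library. Ihh was not tested, and Dhh had a log2 fold change of -0.12 with an interval of -1.05 to 0.81 (adjusted p = 0.868).

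Of 4 tested genes that act in reception at the membrane, 1 was called (16.1% of all genes were). Gpc6, a heparan sulfate proteoglycan of the glypican family, was at 83.6, 73.5, 74.7 and 95.4 CPM in WT and at 39.8, 60.1, 50.6 and 55.7 CPM in the mutants. Every mutant was below every WT embryo, and Gpc6 fell by 0.67 on the log2 scale (adjusted p = 0.017), a call lost without J3, J7 or K14J29. With the epithelial marker score as a covariate it was at -0.21 (adjusted p = 0.41). Cdon, the co-receptor most like Boc, was at 24.7 to 29.7 CPM in WT and 28.6 to 35.6 CPM in the mutants, with a log2 fold change of 0.27 (interval 0.06 to 0.48, adjusted p = 0.0741). Gas1, a further co-receptor, was at -0.05 on the log2 scale (adjusted p = 0.816). Lrp2 was not tested, with 0 to 5 counts per library.

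Ciliary and transduction genes contributed 4 calls of 16, each higher in the mutants, as were 9.52% of all genes. Kif7, the kinesin that organizes the tip of the cilium and regulates Gli processing, was at 41.3, 51.0, 52.9 and 46.4 CPM in WT and at 114, 54.2, 78.7 and 67.6 CPM in the mutants. It rose by 0.72 on the log2 scale (SE 0.20, adjusted p = 0.0426), with its highest value again in K14J26 and 0.48 without that embryo (adjusted p = 0.0302). The call of Kif7 was lost without J3, J5, J6, J7, K14J29 or K14J30, and its direction turned with the epithelial or ameloblast marker score as a covariate. Dync2h1, the motor of retrograde transport in the cilium, was at 24.9 to 28.1 CPM in WT and 33.9 to 39.0 CPM in the mutants (0.46, adjusted p = 0.01) and was called in all 8 fits that left out an embryo and in 10 of the 15 other alternatives (0.36, adjusted p = 0.0973, with the ameloblast score). Ift172, a subunit of the transport trains (0.36, adjusted p = 0.0188), and Arl13b, a ciliary small GTPase (0.35, adjusted p = 0.023), rose too, and were called in 5 and 3 of those 8 fits. Ift172 lost its call without J3, J5 or K14J29, and Arl13b without J3, J5, J6, J7 or K14J29.

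Among kinases and factors of Gli turnover, 4 of 13 were called (16.1% of all genes were). Kctd11, an adaptor of Cul3 ubiquitin ligases that opposes the pathway, was at 14.6, 15.5, 17.2 and 13.1 CPM in WT and at 25.8, 21.7, 32.9 and 28.3 CPM in the mutants, and rose by 0.85 on the log2 scale (adjusted p = 0.0102). Stk36, the relative of the fly kinase Fused, was at 8.14, 8.87, 9.08 and 10.3 CPM in WT and at 15.5, 13.1, 15.1 and 14.5 CPM in the mutants, and rose by 0.67 (adjusted p = 0.0095). Neither overlapped between the groups. Both were called in all 8 fits that left out an embryo, and in 10 (Kctd11) and 11 (Stk36) of the 15 other alternatives. Kctd11 was at 0.49 with the epithelial score (adjusted p = 0.22) and Stk36 at 0.55 with the ameloblast score (adjusted p = 0.0907). Ulk3, a kinase that acts on Gli proteins, rose by 0.50 (adjusted p = 0.0227; call lost without J3, J5, J7 or K14J29), and was at 0.17 with the ameloblast score (adjusted p = 0.409). The ligase scaffold Cul3 fell by 0.24 (adjusted p = 0.0256; call lost without J3, J5, J6, J7, K14J29 or K14J30), and was at -0.15 with the epithelial score (adjusted p = 0.385).

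Of 7 genes known as Hedgehog targets in other tissues, 3 were called, each lower, as were 6.61% of all genes. Mycn, a transcription factor of proliferating cells, was at 21.3, 22.3, 18.9 and 23.8 CPM in WT and at 11.4, 11.9, 8.87 and 11.5 CPM in the mutants, and fell by 0.98 on the log2 scale (SE 0.12, adjusted p = 0.00517). Foxf2, a forkhead factor of mesenchyme, was at 52.3, 56.2, 55.7 and 69.0 CPM in WT and at 41.0, 38.3, 37.4 and 32.1 CPM in the mutants, and fell by 0.65 (adjusted p = 0.0104). Both were called in all 8 fits that left out an embryo, and in 13 (Mycn) and 10 (Foxf2) of the 15 other alternatives. Mycn was at -0.78 with the epithelial score (adjusted p = 0.104) and Foxf2 at -0.55 without J6 and J7 (adjusted p = 0.126). Foxf1, its close relative, was at 82.4 to 93.9 CPM in WT and 60.2 to 74.9 CPM in the mutants, and fell by 0.41 (adjusted p = 0.0208; call lost without J3, J5, J7 or K14J29). Among the mesenchyme markers, Twist1 (-0.33) and Msx1 (-0.26) were also called lower (edgeR's quasi-likelihood test, adjusted p = 0.0364 and 0.039). Col1a1 was called higher (1.10, adjusted p = 0.0406), and Prrx1 (-0.37), Col3a1 (-0.22) and Vim (0.03) were not called. The part of mesenchyme in the falls of Foxf1 and Foxf2 was not tested. The other 4 targets were not called, with log2 fold changes of -0.59 for the cyclin gene Ccnd1, -0.17 for Ccnd2, -0.25 for the survival gene Bcl2 and -0.07 for Foxl1.

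**Figure D4:**
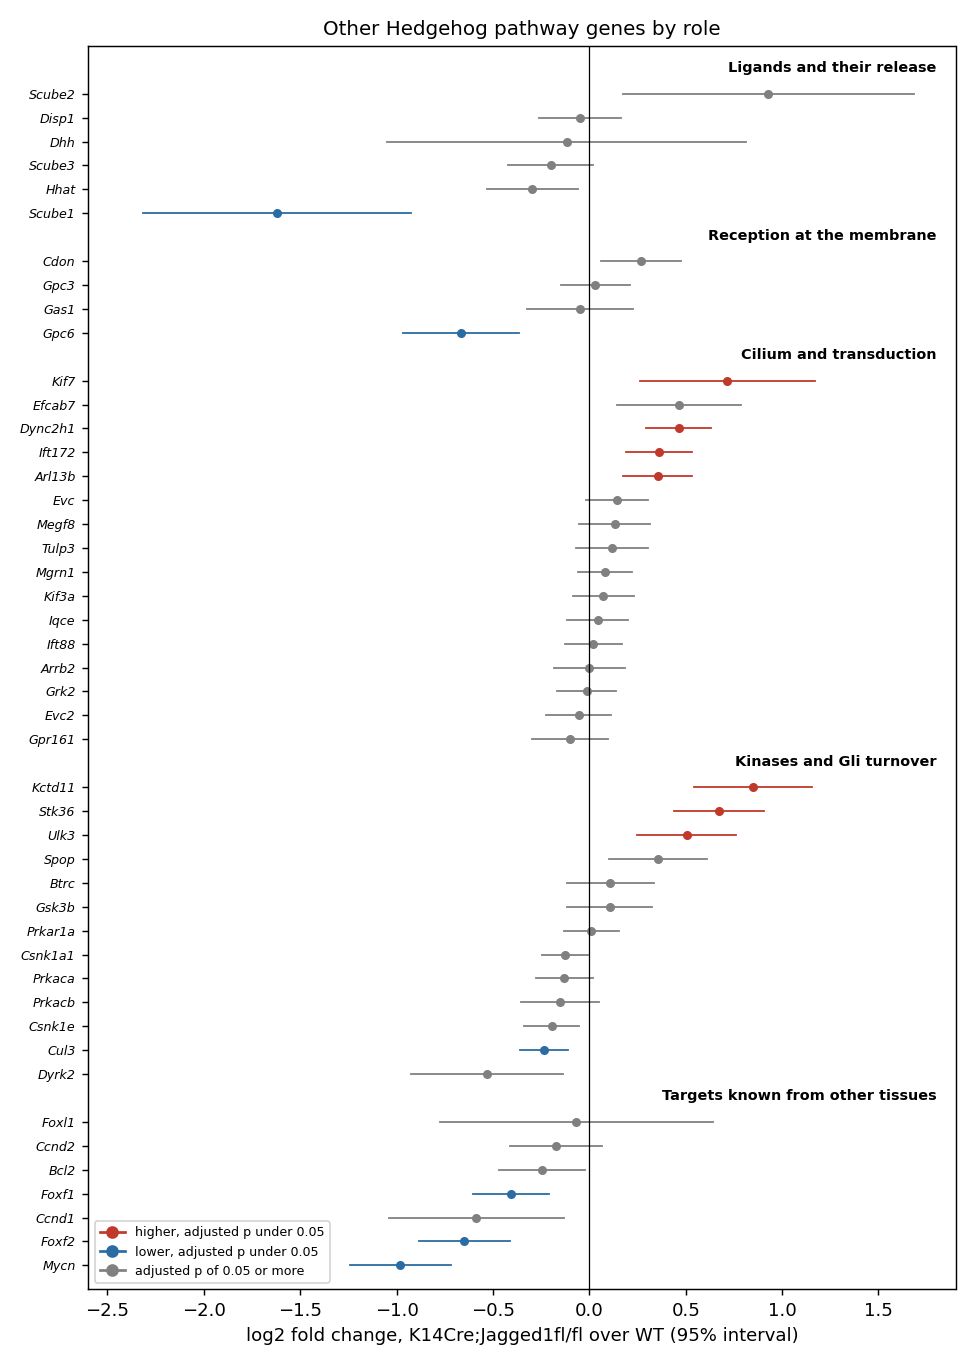
Log2 fold change, K14Cre;Jagged1fl/fl over WT (x axis), with 95% intervals for the 46 tested other Hedgehog pathway genes, grouped by role; red marks genes called higher, blue genes called lower and grey genes not called. Scube1 lies farthest to the left at -1.62, and the 4 calls among ciliary genes are higher and the 3 among targets lower.

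Reads from exon bases that some members share with a neighbour could not be told apart, because the library kit does not mark strand. On the opposite strand, Shh shared 446 exon bases with 9530036O11Rik and 361 with Gm26894, Gli1 shared 62 with Arhgap9 and 265 with Gm47200, Gli3 shared 188 with Gm6556 and Hhip 175 with Gm27820. Ptch1, Smo, Gli2, Sufu and Boc shared no exon bases with another annotated gene.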

How the data were processed

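The authors deposited 1 table of raw read counts per gene for each of 8 embryos. Per the labels' processing notes, reads were aligned with STAR to GRCm38.p3 and counted with featureCounts, while the methods name GenomicRanges for counting. The annotation release is not given in the sources used here. GENCODE annotation of GRCm38 held 42548 of 43629 gene identifiers and supplied symbols, coordinates and exon lengths. No column of per-embryo values was left out.

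A gene entered the test where 2 or more of the 4 embryos in a group held 10 or more counts (17129 genes). These were tested with edgeR 4.0.16 (TMM scaling, glmQLFit and glmQLFTest, R 4.3.3), with Benjamini-Hochberg adjustment over all of them and a threshold of 0.05. The fit was tested on simulated data. Levels are TMM-scaled CPM, or CPM per kilobase of merged exons. A call means an adjusted p under 0.05. Ratios were compared with exact two-sided permutation tests (scipy 1.17.1). Named genes were the 9 members, Jag1, other pathway genes with an adjusted p under 0.05, and Ihh, Dhh, Gas1 and Cdon whatever their result. A gene of the reception list and one of the epithelial marker list are not reported here and were left out of those lists. Scube2, Scube3, Lrp2, Ccnd1, Ccnd2, Bcl2 and Foxl1 were added after their values were seen. The members and lists were chosen with earlier results of these data known. Alternatives were other scalings, DESeq2 1.42.0, edgeR's likelihood ratio test, other count filters, embryos left out and marker scores or Xist as covariates. The epithelial and ameloblast scores did not overlap between the groups, so that fits with them cannot clearly separate score from genotype. Leaving out J6, J7 and K14J26 together and the mesenchyme covariate were chosen after seeing the data.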

Additional observations from a re-analysis of the deposited data

Results flagged for a closer look

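Mycn in K14J29 was the lowest of the 4 mutants, at 8.87 CPM against 11.4 to 11.9 CPM in the others, and its gap to the nearest of them was 0.845 of the group's whole range, above Dixon's 95% critical value for 4 samples. Chance marks about 1 in 20 groups, or 2.6 of the 52 groups of 4 embryos examined here, and this was 1. Mycn was still called lower without K14J29, at -0.89 on the log2 scale (edgeR's quasi-likelihood test, adjusted p = 0.0261).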

How the results depend on the processing

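Of the 9 members, 3 were called with upper-quartile scaling (Smo, Gli3 and Boc), 2 with DESeq2 (Gli3 and Boc), 2 with a filter of at least 1 CPM in at least 4 embryos and 3 with the mesenchyme score as a covariate (Shh, Gli3 and Boc). The single call was Gli3 instead of Boc with library size only, Shh with the ameloblast score (Boc at an adjusted p of 0.064) and Gli1 with the Xist level (Boc at 0.103). By edgeR's test, 0 were called without J6 and J7, with the epithelium score, with the skeletal muscle score and without J6, J7 and K14J26, where 1, 2, 1 and 3 members had an unadjusted p under 0.05. Leaving out single embryos gave 0 to 3. The criteria of the study were met by 2 members with the epithelium score, 3 with the ameloblast score, 1 with the Xist level and 0 to 1 when single embryos were left out. Of the other pathway genes, 0 were called without J6 and J7 and 0 with the epithelium score (17 and 13 with an unadjusted p under 0.05), 4 with the ameloblast score, 2 with the skeletal muscle score, 2 without J6, J7 and K14J26, 20 with the mesenchyme score and 5 to 18 when single embryos were left out. The cause of these shifts was not tested.

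Some log2 fold changes of members that were not called turned sign. Ptch1 was at -0.012 with upper-quartile scaling, -0.079 with library size only, -0.087 and -0.17 with the epithelium and ameloblast scores, and -0.06 to 0.09 when single embryos were left out. Gli1 was at -0.23 and -0.25 with the epithelium and ameloblast scores. Gli2 was at -0.073 with library size only, -0.44 and -0.53 with those scores, -0.15 without J6, J7 and K14J26, and -0.19 to 0.16 when single embryos were left out. Hhip was at 0.23 and 0.058 with those scores and -0.16 to 0.12 when single embryos were left out, and Sufu at 0.053 and 0.052 with those scores. Kif7, called in the 8 embryos, turned sign with the epithelium and ameloblast scores (-0.009 and -0.038). With the Xist level Arl13b was at 0.23 (adjusted p = 0.0892). Shh, Smo, Gli3 and Boc kept their direction in the 8 fits without 1 embryo and in the 15 other fits. Of the ratios, Shh to Gli1 ranged from -0.18 to 0.37 when single embryos were left out, and the other 3 kept their direction. Of 72 values from fits without 1 embryo, 60 kept direction and call, 5 lost a call, 2 gained one and 5 turned sign, and of 135 values from the other alternatives 105 kept both, 7 lost a call, 9 gained one and 14 turned sign. No analysis paired by litter was possible because which embryos shared a litter is not given. With 4 embryos a group, the members that were not called could differ by as much as the intervals printed beside them allow.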
